A study of Mus musculus with 9 samples.

Results

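Aortic RNA from obese mice given sitagliptin was compared with aortic RNA from obese mice that did not receive the drug, on 6 of the 9 arrays of the study. The control group, named DIO by the labels, held 3 male C57BL/6J mice kept for 4 months on a high-fat diet with no oral sitagliptin. The DIO+sitagliptin group held 3 high-fat diet-fed male C57BL/6J mice given 3 mg/kg of sitagliptin by mouth each day, and the labels do not state how long these mice were fed the diet or treated. The third group of the study, vehicle, had 3 C57BL/6J mice with no diet named, and its arrays entered the fit so that the 3 groups shared 1 estimate of the spread. Each array carried RNA from 1 mouse, so that n counts mice. The comparison covers all 60823 probes outside the control features. It is described by the families into which the probe names fall and by the 50 probes that the files tie to a transcript accession.

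Sitagliptin inhibits dipeptidyl peptidase-4 (DPP-4), a peptidase that removes the incretin hormones GLP-1 and GIP from the circulation. Incretins raise insulin secretion after a meal, and GLP-1 receptors have also been described in blood vessels. The aortic wall consists of endothelium, layers of smooth muscle and an adventitia with fibroblasts, and perivascular fat lies against it. By its title, the series asks how the drug acts on long noncoding RNA and mRNA in the aortae of obese mice and on endothelial function.

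The arrays gave probe brightness in arbitrary intensity units. A reading below is the geometric mean of a probe's processed intensities over its spots, of which each transcript probe had 10. A difference is DIO+sitagliptin minus DIO on the quantile-normalized log2(intensity + 1) scale, where 1 is a 2-fold change and dim probes are compressed. Its standard error (SE, n = 3 per group) and 95% interval come from the limma fit. Testing was limited to the 49360 probes with a share of 0.5 or more of their spots marked well above background on at least 3 of the 9 arrays. In the array design, 15 probes are named NEGATIVE, and the brightest of them set a background level for each array, between 24.6 and 48.6 units on the 6 arrays.

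The scan records place all 3 DIO arrays and DIO+sitagliptin 2 in the same scan of 12 November 2020. DIO+sitagliptin 1 was scanned 2 hours later, and DIO+sitagliptin 3 on 20 November together with vehicle 3. The treated arrays therefore lie in 3 different scans, and only DIO+sitagliptin 2 shares a scan with the controls. Median spot intensity was 31.4, 22.1 and 25.8 units on the DIO arrays and 37.6, 29.5 and 13.5 units on the treated arrays, DIO+sitagliptin 3 being the dimmest. Of all probes, 46.1%, 46.4% and 42.6% exceeded the background level on the DIO arrays, against 39.8%, 42.0% and 34.5% on the treated arrays. Every treated array lay below every DIO array in this share (38.8% ± 3.84 against 45.02% ± 2.13, SD, n = 3), at an exact two-sided permutation p of 0.1, the smallest that 3 against 3 allows. The background level itself was 35.2, 24.6 and 31.7 units on the DIO arrays and 48.6, 37.2 and 30.0 units on the treated arrays. The median NEGATIVE probe read 1.89 units on DIO+sitagliptin 3 and 1.31 on vehicle 3, against 11.0 to 24.8 units on the other arrays compared. Low readings on DIO+sitagliptin 3 and vehicle 3 thus lie over a lower floor than those of the other arrays compared. The share of spots marked well above background overlapped, at 82.9%, 67.0% and 74.2% against 79.8%, 73.4% and 66.5% (exact permutation p 0.7). Other array-level values put to the same test had a p of 0.3 or more, but a test of groups cannot single out 1 array. The log2 ratio of control probe Mouse-PGK1_3 to Mouse-PGK1_5 was 4.77 on DIO+sitagliptin 3. It was -0.96 to 2.18 on the other arrays compared. Mouse-PGK1_5 itself read 2.74 units on DIO+sitagliptin 3. The GAPDH ratio of the same kind was -1.73 on that array and -1.61 to 0.49 on the others compared. Whether RNA quality differed was not tested.

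DIO+sitagliptin 3 differed from the remaining 5 arrays. Across the 49360 kept probes, which are not independent replicates, the DIO arrays correlated with each other at r = 0.952 to 0.963. DIO+sitagliptin 1 and 2 correlated at 0.937 with each other and at 0.938 to 0.974 with the DIO arrays, whereas DIO+sitagliptin 3 reached 0.738 and 0.818 with the other treated arrays. The median absolute log2 difference between a pair was 0.37 to 0.43 within DIO, and 0.84 to 1.15 in pairs with DIO+sitagliptin 3. DIO+sitagliptin 2 was closer to DIO 3 (0.29) than any pair of DIO arrays were to each other. The standard deviation across the 3 treated arrays exceeded that across the 3 DIO arrays for 79.1% of probes, with medians of 0.72 and 0.34 on the log2 scale.

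**Figure D1:**
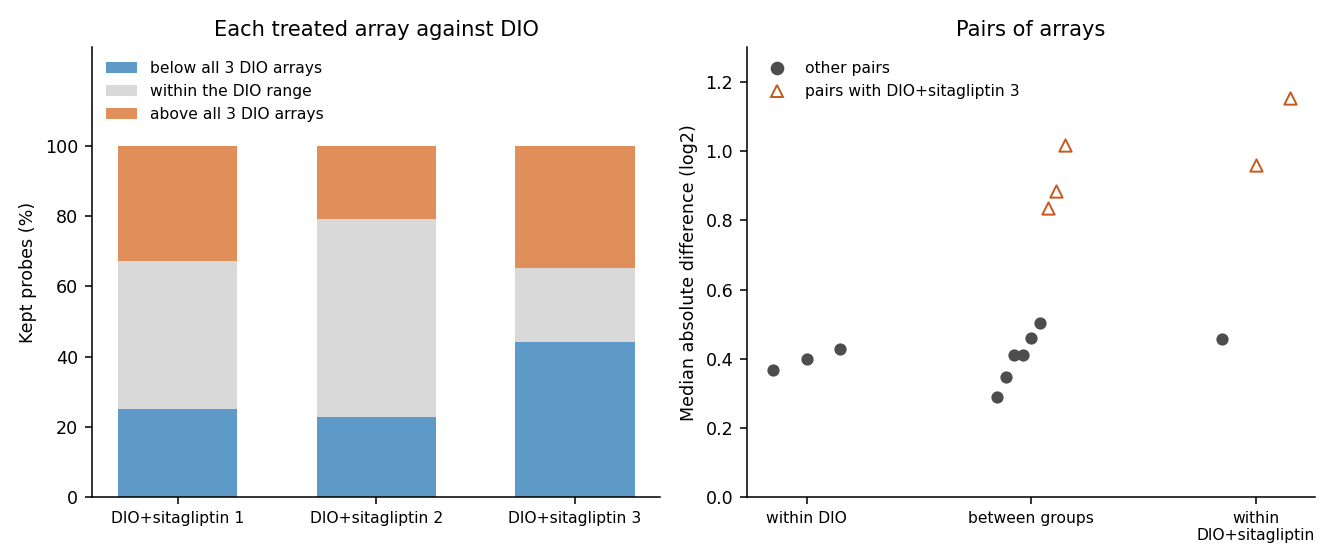
Left, the share of the 49360 kept probes (%) on which each treated array lay below, within or above the range of the 3 DIO arrays. Right, the median absolute log2 difference over the same probes for each pair of the 6 arrays, with pairs that include DIO+sitagliptin 3 as open triangles. DIO+sitagliptin 3 lay within the DIO range for 21.1% of probes, against 42.1% and 56.3% for DIO+sitagliptin 1 and 2.

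Measured probe by probe against the range of the 3 DIO arrays, DIO+sitagliptin 2 fell inside it for 56.3% of kept probes, above it for 21.0% and below it for 22.8%. DIO+sitagliptin 1 was inside for 42.1%, above for 32.8% and below for 25.1%. DIO+sitagliptin 3 was inside for only 21.1%, above for 34.6% and below for 44.2%, and it differed from the DIO mean by over 2-fold on 44.8% of probes. The same share was 11.2% for DIO+sitagliptin 1 and 4.65% for DIO+sitagliptin 2. The values in the following paragraphs are therefore given for each array, and many differences are given without single arrays as well. Which arrays are called high or low follows the readings unless the normalized scale is named.

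No probe passed the test between treated and untreated obese aortas. Of 49360 probes, 0 (0%) were called at a limma adjusted p under 0.05, with 0.99998 as the lowest adjusted value. The same test listed 114 probes at an unadjusted p under 0.05, 73 higher (0.148%) and 41 lower (0.0831%) with sitagliptin. This split was not stable, with 77 higher and 287 lower without DIO+sitagliptin 3, 178 and 260 without DIO+sitagliptin 2, and 444 and 677 without the arrays of 20 November. Positive differences were found for 22257 probes (45.1%), negative ones for 27103, and the median difference was -0.05. All 3 treated arrays lay above all 3 DIO arrays for 948 probes (1.92%) and below them for 693 (1.4%). The median 95% interval reached 1.13 to either side of the difference with 3 arrays per group. Each interval treats its probe as if it were the only one tested. For most probes a difference under about 2-fold could thus not be told from 0, and the adjusted test asks for more. A difference over 2-fold could be missed as well. The probe ASMM10UP689V4, at -1.48 ± 0.46, had an adjusted limma p of 0.99998.

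Of the 50 transcript probes, 49 received a gene symbol, and 40 of these genes passed the detection filter. Among the 40, 15 had a positive and 25 a negative difference, with a median of -0.13 and a range from -0.997 to 0.59. None had an unadjusted p under 0.05 by limma, the smallest being 0.0975 for Gpi1, and the adjusted p was 0.99998 for each of them. The treated arrays lay above all DIO arrays for 1 gene, Alkbh4 (against 1.92% of all probes), and below them for 0 (against 1.4%). The interval of each of the 40 genes included 0. The direction depended on DIO+sitagliptin 3: without it, 13 of the 40 genes had a positive difference and 18 had the opposite sign. Leaving out DIO+sitagliptin 1 or 2 turned the sign of 6 and 3 genes, and leaving out DIO 1, 2 or 3 that of 5, 2 and 3 genes. Within the scan that DIO+sitagliptin 2 shares with the 3 DIO arrays, 12 genes were higher and 28 lower, and 15 had the sign opposite to that of all arrays.

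Brightness limits what these genes can show. On all 6 arrays, 12 of the 40 exceeded the background level set by the NEGATIVE probes, 13 did so on some arrays and 15 on none. Of the 12 bright genes, 11 are described here: Actb, Apoe, Pex11a, Olfr1307, Olfr166, Lhx1, Hspb7, Gamt, H2-M2, Gm9789 and Duox1.

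**Figure D2:**
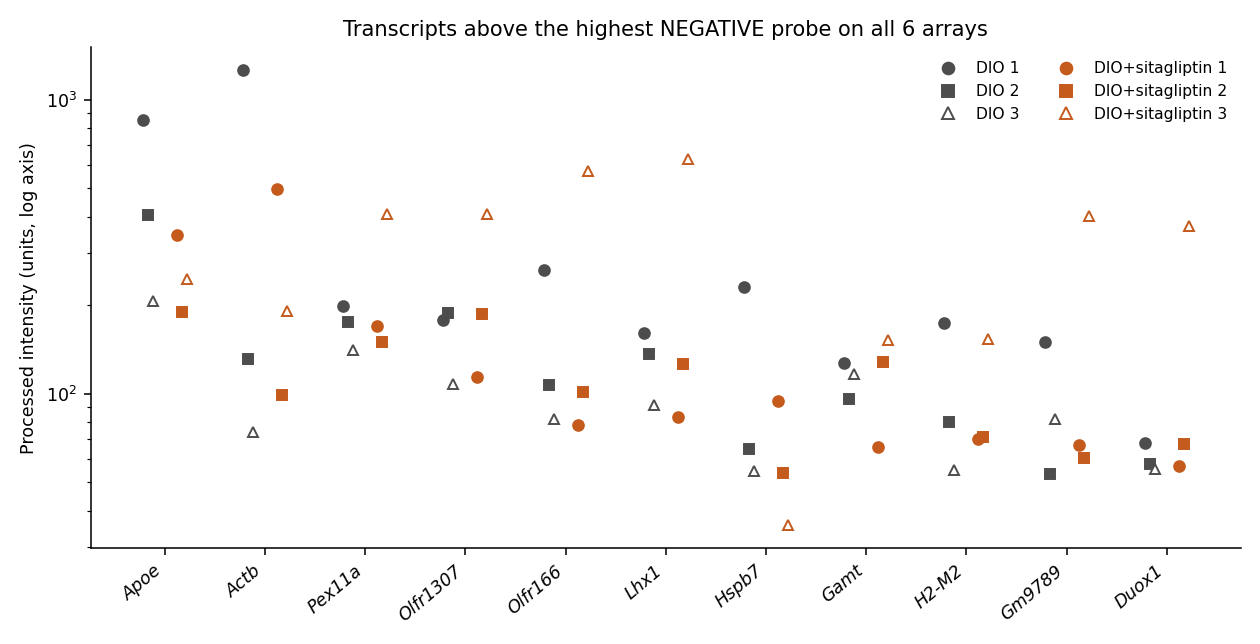
Processed intensity (units, log axis) of 11 transcripts that exceeded the highest NEGATIVE probe on all 6 arrays, 1 point per array, DIO in grey and DIO+sitagliptin in orange. The groups overlap for each gene, and the triangles of DIO+sitagliptin 3 lie above the other 5 arrays for Pex11a, Olfr1307, Olfr166, Lhx1, Gamt, Gm9789 and Duox1.

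Energy metabolism was represented by 5 kept genes. Gpi1, the glycolytic isomerase that interconverts the phosphates of glucose and fructose, had the most negative difference of the 40 genes. Its readings were 136, 88.1 and 32.0 units on DIO 1, 2 and 3 and 44.99, 38.4 and 30.4 units on DIO+sitagliptin 1, 2 and 3. The treated arrays were low and close together, and DIO 3 was as low as they were, so that the groups overlapped. The difference was -0.997 ± 0.55 (95% interval -2.21 to 0.22), and it was -1.08 without DIO+sitagliptin 3, -0.70 without DIO 1 and -1.61 without DIO 3. On 5 of the 6 arrays Gpi1 exceeded the background level, but only DIO 1 and 2 did so clearly. DIO 3 and DIO+sitagliptin 2 and 3 were just above their levels of 31.7, 37.2 and 30.0 units. DIO+sitagliptin 1 was under its level of 48.6 units. The low readings thus lie close to the background. As the RNA came from whole tissue, fewer cells of a type and less RNA per cell cannot be told apart for this or any other gene.

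The list of fatty acid oxidation and peroxisome genes had 29 members, of which 4 had a named probe and 3 were kept, 2 lower and 1 higher, none past the test, with a median of -0.03 against -0.05 over all probes. Acaa2, the mitochondrial thiolase of the last step of beta-oxidation, read 165, 66.9 and 58.0 units on the DIO arrays and 78.4, 74.4 and 23.7 units on the treated arrays. DIO 1 was the high array and DIO+sitagliptin 3 the low one, and the other 4 were alike. Its difference was -0.62 ± 0.51, or -0.28 without DIO+sitagliptin 3. Pex11a, a membrane protein of peroxisome division, read 199, 175 and 141 units without and 169, 150.3 and 408 units with sitagliptin. Only DIO+sitagliptin 3 left the DIO range of readings on the high side. On the normalized scale DIO+sitagliptin 1 (7.72) was also just above the highest DIO array (7.69), and DIO+sitagliptin 2 (7.20) just below the lowest (7.23). The difference of 0.27 ± 0.44 became -0.01 when DIO+sitagliptin 3 was left out. Cpt1a, the transferase that lets long-chain fatty acids enter the mitochondrion, stayed below the background level on all 6 arrays (5.19 to 15.9 units), with a difference of -0.03 ± 0.66, or -0.55 without DIO+sitagliptin 3. Ppara, the nuclear receptor that controls many genes of this pathway, did not pass the detection filter and read 2.27 to 5.62 units.

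Gamt, the methyltransferase that completes creatine synthesis, read 127.5, 95.7 and 117 units on the DIO arrays. The treated arrays gave 65.8, 128.1 and 152 units, with DIO+sitagliptin 1 below the DIO range and DIO+sitagliptin 2 and 3 above it. On the normalized scale DIO+sitagliptin 2 (6.98) and 3 (7.13) lay inside the DIO range of 6.65 to 7.19. The difference was -0.27 ± 0.46, it was 0.18 without DIO+sitagliptin 1 and -0.50 without DIO+sitagliptin 3, and median scaling in place of quantile normalization gave 0.02.

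Among 30 genes of redox balance and detoxification, 4 had a named probe and 3 were kept, 2 higher and 1 lower, with a median of 0.44 against -0.05 over all probes and none past the test. Duox1, an NADPH oxidase that produces hydrogen peroxide, had the highest difference of the 40 genes, 0.59 ± 0.70 (95% interval -0.96 to 2.15). It read 68.0, 57.5 and 55.2 units on the DIO arrays and 56.7, 67.4 and 373 units on the treated arrays. DIO+sitagliptin 3 alone carried the high value, and without it the difference was -0.22. In the vehicle group the array of the same scan date was also the brightest for Duox1, at 158 units against 45.8 and 95.2. Gsta4, a glutathione transferase that clears products of lipid peroxidation, was below the background level on all 6 arrays (13.7 to 34.9 units) and had a difference of 0.44 ± 0.33, or 0.20 without DIO+sitagliptin 3. Prdx2, a thiol peroxidase, read 100.5, 64.3 and 53.1 units on the DIO arrays and 109, 58.8 and 24.0 units on the treated arrays, again with DIO+sitagliptin 3 as the low array, and its difference of -0.21 ± 0.46 became 0.17 without it. The probe of Sod1, the cytosolic superoxide dismutase, was tied to a single GENCODE transcript of the gene, was not kept and read 2.84 to 9.18 units. Whether it detects other Sod1 transcripts was not tested.

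Apoe, the apolipoprotein through which remnant lipoproteins are taken up, was the only kept gene of the 15 listed for lipid transport and cholesterol. It was among the brightest of the named transcripts, at 855, 407 and 206 units on the DIO arrays and 346, 190.3 and 245 units on the treated arrays. The DIO readings spread widely among themselves and spanned all treated arrays but DIO+sitagliptin 2, which lay just under DIO 3. On the normalized scale both DIO+sitagliptin 2 (7.54) and 3 (7.69) lay below DIO 3 (8.08), the lowest DIO array. The difference was -0.75 ± 0.71 (95% interval -2.33 to 0.84). It kept its sign in each fit that left out 1 array, between -1.21 without DIO+sitagliptin 1 and -0.45 without DIO 1.

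Of 19 genes of the cytoskeleton, contraction and muscle chaperones, 2 had a named probe, Actb and Hspb7, with a median of -0.35 and neither past the test. Actb encodes cytoplasmic beta-actin. It read 1262, 131 and 73.8 units on the DIO arrays and 497, 98.9 and 190.5 units on the treated arrays. The spread between mice was far wider than that between the 10 spots of an array, which ran from 1169 to 1394 units on DIO 1. Replicate 1 was the brightest array in both groups. The difference was -0.08 ± 1.303, the least precise of the 40 genes, with an interval from -2.98 to 2.83, and it was 0.98 without DIO 1 and 0.14 without DIO+sitagliptin 3. Hspb7, a small heat shock protein of heart and vessel muscle, read 230.2, 65.0 and 54.4 units on the DIO arrays and 94.2, 53.8 and 35.6 units on the treated arrays. Its difference of -0.62 ± 0.52 was -0.18 without DIO 1, the array with the highest reading.

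The 3 kept genes of the 23 listed as immune effectors and lymphocyte genes each had a negative difference, with a median of -0.53 and none past the test. Il2, the T-cell growth factor, read 153, 88.6 and 119 units on the DIO arrays. On the treated arrays it read 146, 189 and 9.38 units, so that DIO+sitagliptin 3 was by far the lowest array. The other treated arrays lay within or above the DIO range. On the normalized scale both DIO+sitagliptin 1 (7.46) and 2 (7.53) lay above the highest DIO array (7.22). The difference was -0.53 ± 0.90 and became 0.54 without DIO+sitagliptin 3. Vehicle 3, of the same scan date, was low as well, at 14.3 units against 112 and 159 on vehicle 1 and 2.

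Gsdmd, which forms the membrane pores of pyroptosis, read 48.2, 31.4 and 32.0 units on the DIO arrays and 57.5, 32.8 and 4.20 units on the treated arrays. DIO+sitagliptin 3 again held the low value, and the difference of -0.59 ± 0.54 was -0.03 without that array and -1.07 without DIO+sitagliptin 1. Vehicle 3 read 9.71 units against 50.05 and 45.6 on the other vehicle arrays. Mzb1, an endoplasmic reticulum chaperone of plasma cells and marginal zone B cells, read 85.6, 42.2 and 59.9 units on the DIO arrays and 61.3, 57.4 and 20.6 units on the treated arrays. Its difference was -0.49 ± 0.44, or -0.27 without DIO+sitagliptin 3. With scan date as a term in the fit, the differences were 0.39 for Il2, -0.12 for Gsdmd and -0.18 for Mzb1.

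Both kept histocompatibility genes of the 17 listed had negative differences that did not pass the test, with a median of -0.18. H2-M2, a nonclassical class I gene, read 174, 80.1 and 55.2 units on the DIO arrays and 69.9, 71.0 and 153 units on the treated arrays. The treated readings lay inside the DIO range. On the normalized scale DIO+sitagliptin 1 (5.89) was just below the DIO range of 5.95 to 7.05 and DIO+sitagliptin 3 (7.14) just above it. The difference of -0.15 ± 0.52 turned to 0.07 with median scaling and to 0.05 with cyclic loess. H2-Q7, a class Ib gene of the Qa-2 type, read 108, 42.1 and 25.2 units on the DIO arrays and 61.3, 24.5 and 59.6 units on the treated arrays. Its difference was -0.21 ± 0.85, and it was 0.23 without DIO 1 and 0.30 without DIO+sitagliptin 2. Probes for members of such a gene family may bind related genes as well, which was not tested, so that both genes are uncertain.

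Odorant receptor genes supplied 3 kept probes, each with a positive difference that did not pass the test and with a median of 0.11. Olfr166 read 264, 107 and 82.1 units on the DIO arrays and 78.4, 101.2 and 571 units on the treated arrays. Olfr1307 read 178, 188 and 108 units on the DIO arrays and 114, 186 and 408 units on the treated arrays. In both, DIO+sitagliptin 3 was the highest of the 6 arrays and the other treated arrays were not above the DIO range. Without it the differences were -0.66 for Olfr166, against 0.08 ± 0.70 with all arrays, and -0.06 for Olfr1307, against 0.29 ± 0.51. The pseudogene Olfr22-ps1 stayed below the background level (9.01 to 19.0 units), with a difference of 0.11 ± 0.49, or -0.28 without DIO+sitagliptin 3.

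Lhx1, a LIM homeobox transcription factor of head and kidney development, was bright on all 6 arrays. It read 161, 136 and 91.3 units on the DIO arrays and 83.3, 127 and 629 units on the treated arrays. DIO+sitagliptin 3 alone was high, and the difference was 0.33 ± 0.69 with it and -0.38 without it. The predicted gene Gm9789 followed the pattern of Lhx1, at 150.03 units on DIO 1, 53.1 on DIO 2 and 82.1 on DIO 3, then 66.8, 60.5 and 404 units on the treated arrays. Its difference was 0.15 ± 0.71 and became -0.65 without DIO+sitagliptin 3.

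Several genes outside the lists had among the smallest unadjusted p of the negative differences. Lhfp, a tetraspan membrane protein named as a fusion partner in lipoma, read 127, 132 and 46.1 units on the DIO arrays and 37.5, 64.7 and 86.5 units on the treated arrays. DIO+sitagliptin 1 lay below the DIO range and the other treated arrays inside it, for a difference of -0.84 ± 0.67, or -0.32 without DIO+sitagliptin 1. The 10 spots of Lhfp on DIO 2 ran from 74.0 to 11312 units, so that its value there depends on how spots are combined. The difference was -0.60 with the median over spots, -1.92 with the log2 of the mean over spots and -0.46 without DIO 2. Tm9sf1, a membrane protein of the endosomal system, showed the same order, with 63.5, 49.5 and 39.2 units on the DIO arrays against 23.8, 42.4 and 51.5 units. Its difference of -0.65 ± 0.51 was -0.06 without DIO+sitagliptin 1 and -1.07 without DIO+sitagliptin 3, so that 1 treated array carried it. Hyal3, of the hyaluronidase family, had a difference of -0.39 ± 0.34 and exceeded the background level on 1 of the 6 arrays, DIO 1 at 38.8 units.

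Alkbh4, an AlkB-family dioxygenase, was the only gene of the 40 whose treated arrays all lay above the DIO arrays on the normalized scale. The normalized log2 values were 3.77, 3.56 and 3.64 on the DIO arrays and 4.03, 3.87 and 4.38 on the treated arrays, for a difference of 0.44 ± 0.34. As read from the arrays, the values were 18.6, 10.5 and 14.0 units and 27.0, 18.6 and 10.7 units, which overlap. DIO+sitagliptin 3 is low before and high after normalization, which raises the values of the dimmest array. All 6 readings were under the background level, so that the separation of Alkbh4 rests on differences within the background range. The same caution holds for E2f1, the cell cycle transcription factor, at 7.06 to 25.4 units with a difference of -0.08 ± 0.29, and for Trp53rka, a kinase that acts on p53, at 1.80 to 30.1 units with a difference of -0.29 ± 0.49, or 0.18 without DIO+sitagliptin 3. These 3 genes were the kept ones of the 12 listed for the cell cycle and DNA damage, with a median of -0.08.

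A further 5 named genes stayed under the background level on all 6 arrays. Their differences were 0.26 ± 0.41 for Ntng1, a membrane-anchored netrin, 0.24 ± 0.39 for the GABA receptor subunit Gabrg1, 0.17 ± 0.46 for the early endosome GTPase Rab5a, 0.16 ± 0.38 for the centrosomal protein Cep41 and -0.51 ± 0.40 for the RNA-binding protein Carhsp1. Without DIO+sitagliptin 3 the differences of Rab5a and Cep41 were -0.09 and -0.04, and those of Gabrg1 and Ntng1 were 0.05 and 0.08. The 9 genes that failed the detection filter were Atg3, Bambi, Cav2, Dnajc11, Kcnn2, Mbp, Ppara, Sod1 and Tyr, and no difference was tested for them. Of the 12 gene lists, those for incretin and DPP-4 signalling and for vascular tone had no named probe, so that neither the drug target nor the endothelial genes the study asks about are analysed here. Of 44 markers of 8 cell types, 2 had a named probe (Mzb1 and Chgb), so that the tissue label could not be checked against markers of smooth muscle or endothelium.

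**Figure D3:**
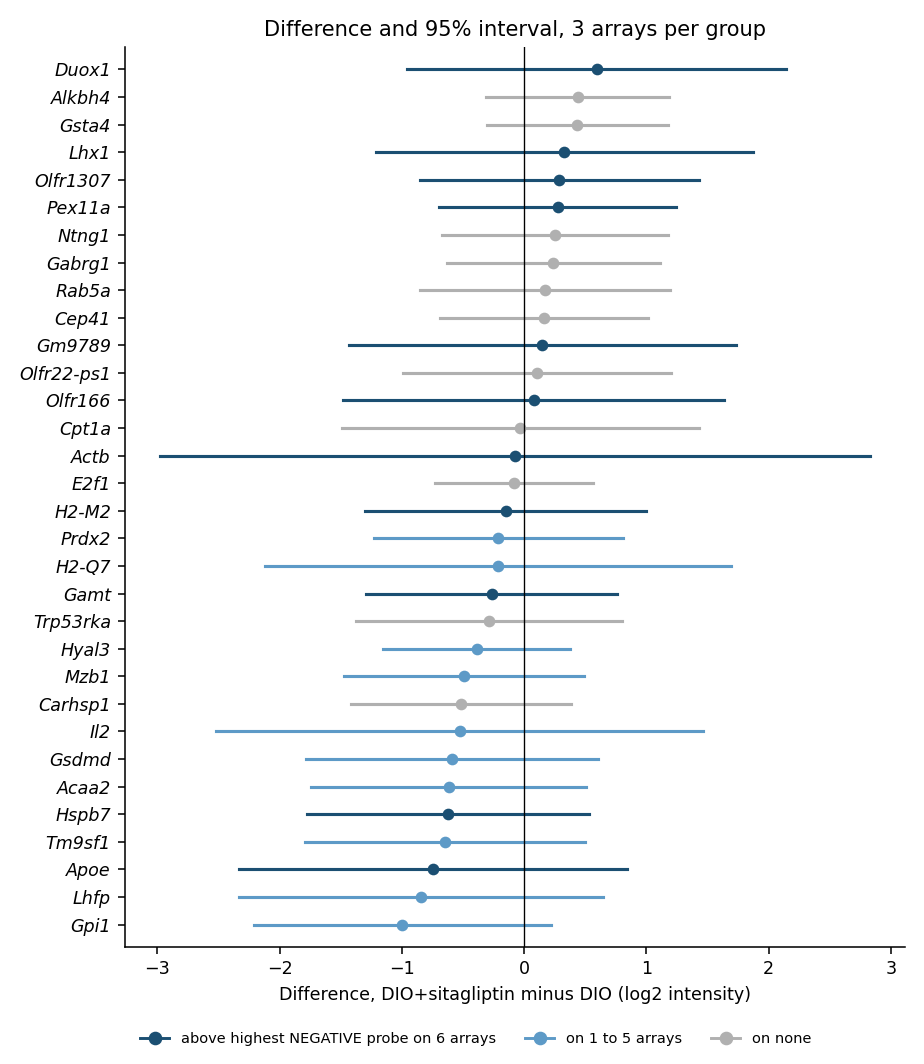
Difference (DIO+sitagliptin minus DIO, log2 intensity) with its 95% interval from the limma fit for the 32 named genes, 3 arrays per group, coloured by the number of arrays on which the gene exceeded the highest NEGATIVE probe. Each interval includes 0, from Gpi1 at -0.997 to Duox1 at 0.59.

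The later scan offered a comparison within groups, since 1 treated and 1 vehicle array were scanned on 20 November. For each probe, DIO+sitagliptin 3 minus the mean of DIO+sitagliptin 1 and 2 was set against vehicle 3 minus the mean of vehicle 1 and 2. Across the 49360 kept probes, which share arrays and are not independent, these deviations correlated at r = 0.759 and had the same sign for 38991 (79.0%). DIO+sitagliptin 3 deviated by over 2-fold on 25346 probes (51.3%), and on 14079 of these vehicle 3 deviated by over 2-fold in the same direction. Scan date, RNA quality and mouse cannot be told apart for DIO+sitagliptin 3.

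Among the 40 named genes the same correlation was 0.58, and 25 genes had the same sign. The shared deviations (DIO+sitagliptin 3, then vehicle 3) were -3.25 and -2.23 for Il2, -1.69 and -1.14 for Gsdmd, 2.47 and 1.45 for Duox1, and 2.17 and 1.49 for Lhx1. Olfr166 had 2.30 and 1.37, and Gm9789 2.49 and 1.48. Genes that deviated in opposite directions were also found, among them Actb (-0.67 and 2.65), Apoe (-0.56 and 1.01) and Acaa2 (-0.99 and 0.71). These genes were picked after the deviations were seen.

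**Figure D4:**
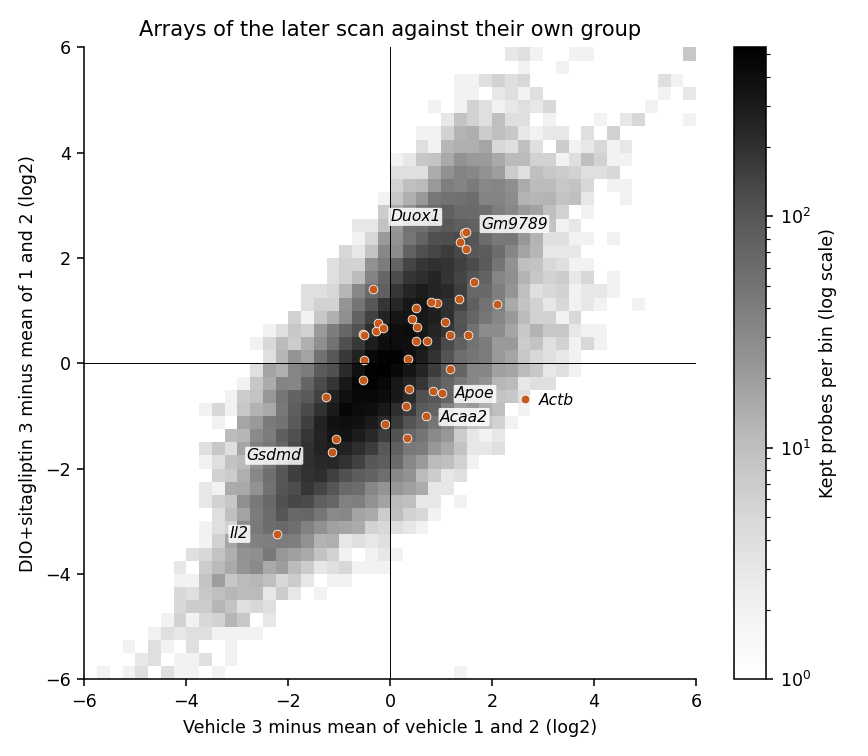
Deviation of the array of 20 November from the other arrays of its group, vehicle on the horizontal and DIO+sitagliptin on the vertical axis (normalized log2), with the number of kept probes per bin in grey (log scale) and 39 of the 40 named genes as orange points. The cloud runs along the diagonal (r = 0.759), with Il2 and Gsdmd low on both axes and Duox1 and Gm9789 high on both.

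Most probes of the array carry names of other kinds, and the files do not say what the name prefixes stand for, so that these probes are given as printed. The 3 largest families are ASMM10LNC with 23503 kept of 27812 probes, ASMM10AP with 18579 of 22359 and ASMM10P with 5489 of 7912. Their median differences were -0.04, -0.07 and 0.004, against -0.05 over all kept probes. The families named humanlincRNA (720 kept), mouselincRNA (445) and ASMM10UP (405) had medians of -0.07, -0.08 and -0.05. An unadjusted limma p under 0.05 was reached by 47 ASMM10LNC probes (0.200%), 44 ASMM10AP probes (0.237%) and 14 ASMM10P probes (0.255%). The same count was 6 of humanlincRNA (0.833%), 2 of ASMM10UP (0.494%) and 1 of mouselincRNA (0.225%). Over all kept probes it was 114 (0.231%) in both directions together, 0.148% higher and 0.0831% lower. No family had a called probe.

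Treated arrays were the more variable in each of these 6 families. The median standard deviation over the treated arrays was 0.71 in ASMM10LNC, 0.70 in ASMM10AP and 0.82 in ASMM10P, against 0.34, 0.33 and 0.39 over the DIO arrays. Of the kept probes, 19.9% of humanlincRNA and 14.6% of ASMM10UP exceeded the background level on all 6 arrays, against 31.8% of ASMM10LNC. The 15 probes with names starting CUST_ had the median farthest from 0. Of the 12 kept, 10 had a negative difference (against 27103 of all 49360), the median was -0.59, and 0 had an unadjusted p under 0.05. The family is small and brighter than the rest, with 75% of its kept probes above the background level on all 6 arrays. That share was 30.5% over all kept probes. The median reading over its 15 probes was 272, 182 and 157 units on the DIO arrays and 97.4, 130 and 144 units on the treated arrays, with no overlap between groups. After normalization the log2 medians of the 12 kept probes were 8.59, 8.38 and 7.86 against 7.97, 7.80 and 7.66, which overlap.

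**Figure D5:**
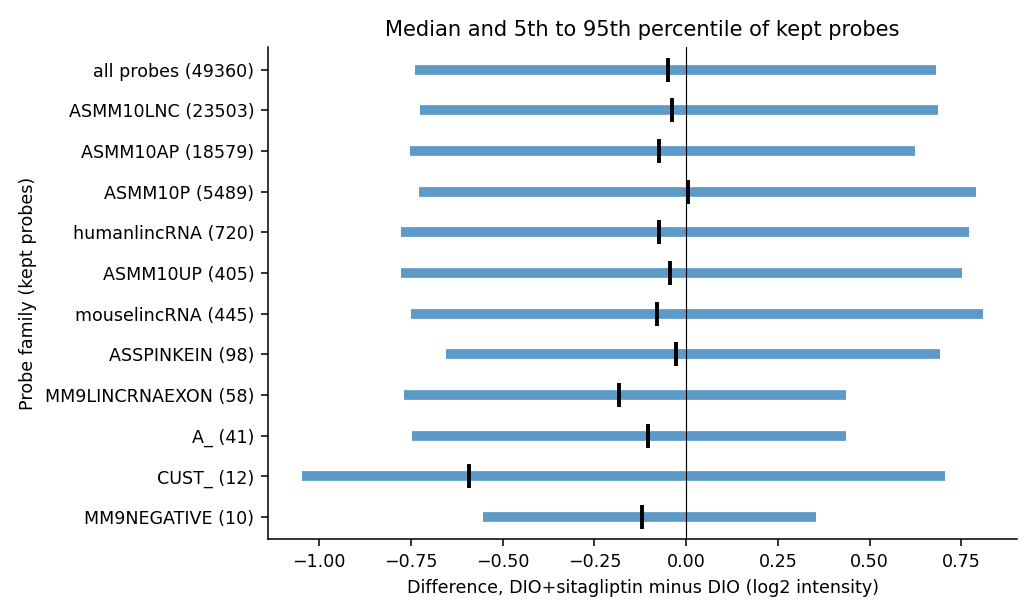
Median difference (black tick) and 5th to 95th percentile (blue bar) of the kept probes of each name family, in log2 intensity, DIO+sitagliptin minus DIO, with the number of kept probes in brackets. The medians of the 6 families with over 100 kept probes lie between -0.08 and 0.004, and that of CUST_, with 12 kept probes, is -0.59.

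Single probes with the smallest unadjusted p in each direction show what the fit ranks first within a family. ASMM10LNC1A107656917V4 read 33.7, 24.3 and 26.0 units on the DIO arrays and 53.6, 52.9 and 54.4 units on the treated arrays. The 3 treated readings were alike and above each DIO reading, for a difference of 0.92 ± 0.32 (unadjusted limma p 0.0159, adjusted p 0.99998). In the other direction, ASMM10LNC1A100095654V4 read 52.1, 31.4 and 29.1 units on the DIO arrays and 29.3, 19.1 and 6.46 units on the treated arrays. Its normalized values did not overlap between groups, and the difference was -1.15 ± 0.37 (unadjusted p 0.0118, adjusted p 0.99998 by limma).

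Within ASMM10AP, ASMM10AP1B111999448V4 read 53.2, 36.3 and 38.2 units on the DIO arrays and 39.9, 25.02 and 5.07 units on the treated arrays, with DIO+sitagliptin 3 lowest and a difference of -1.15 ± 0.38. The probe ASMM10P018707V4 read 10.6, 5.16 and 6.21 units without and 24.0, 17.2 and 9.84 units with sitagliptin, all under the background level, at a difference of 1.27 ± 0.41. ASMM10UP689V4 read 22.96, 21.4 and 14.7 units on the DIO arrays and 13.9, 11.7 and 1.25 units on the treated arrays. All of its readings were under the background level too, and its difference was -1.48 ± 0.46. Of humanlincRNA, the probe humanlincRNA0561-_P1V4 read 44.1, 25.1 and 32.0 units on the DIO arrays and 23.9, 33.1 and 3.52 units on the treated arrays, at a difference of -1.02 ± 0.42. These probes were selected by their p, so that their values describe the selection and carry no test.

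Probes past a 2-fold difference were mostly set by 1 array. Of the kept probes, 762 had a difference above 1 and 744 below -1. DIO+sitagliptin 3 was the treated array farthest from the DIO mean in 697 of the former (91.5%) and 661 of the latter (88.8%). When the mean of the treated arrays was taken without it, 68 of the 762 and 90 of the 744 were still past 2-fold. The difference exceeded 2-fold on each of the 3 treated arrays for 6 probes on the high side and 20 on the low side. The groups did not overlap for 89 and 51 of them, and 40 and 24 had an unadjusted limma p under 0.05. Over all kept probes these shares were 1.92% and 1.4%, and 0.148% and 0.0831%, and choosing probes by the size of the difference raises both counts.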

How the data were processed

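Aortic RNA of 9 mice, 3 per group, was hybridized to 9 one-colour Agilent arrays, and the 6 arrays of DIO and DIO+sitagliptin were compared. The series' design text counts 3 mice in each group, so that replicates are separate animals. The deposited values are spot intensities in arbitrary units, which Agilent Feature Extraction (version 11.0.1.1) had corrected for background and for trends over the slide, per the file headers. The headers name the mm9 build and record no normalization between arrays. The mark of spots well above background was used as the files give it.

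Log2(intensity + 1) was averaged over the spots of each of 60823 probes (61537 spots), quantile normalized over 9 arrays and filtered to 49360 probes. The moderated test of limma (version 3.58.1, R 4.3.3) compared the groups with an intensity trend and no covariate, and Benjamini-Hochberg adjustment ran over all kept probes. Single values per array were compared with an exact permutation test. Summaries were made in Python 3.11.15 with pandas 2.3.3 and numpy 2.4.6, and plots with matplotlib 3.10.9. The fit was tested on simulated data. The number of arrays sets the precision.

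Gene symbols came from RefSeq of GRCm38.p6 for 46 transcript accessions and from GENCODE for 3. The genes named are the 10 positive and 10 negative differences with the smallest unadjusted p, the kept members of 12 gene lists, those bright on all 6 arrays and those whose groups do not overlap, which gave 32 genes described here. A result on 1 kept gene is not reported here. In each family with at least 100 kept probes, the probe with the smallest p in each direction was taken, which gave 12 probes, of which 6 are described. A further 7 kept genes (Uhrf1bp1l, Chgb, Nup50, Spats1, Anxa8, Taf1a and Rps4l) are counted only. Members, lists and rules were chosen with earlier results of these data known. Alternatives covered normalization, pseudocount, spot averaging, filter, arrays in the fit, scan date, replicate block, array weights, variance prior and call rule. Median signal, the first scan alone, leaving out vehicle arrays and a filter set by the NEGATIVE probes were chosen after seeing the data.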

Additional observations from a re-analysis of the deposited data

How the results depend on the processing

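No probe was called at a limma adjusted p under 0.05, 0.10 or 0.20, or in any alternative but 1. Array weights called 680 probes, 298 of them higher and 382 lower, with 12170 at an unadjusted p under 0.05. There the weight of DIO+sitagliptin 2 was 171 against 0.10 to 1.36 for the other arrays, so that 1 treated array stood for its group. The 114 probes at an unadjusted p under 0.05 (73 higher, 41 lower) became 47 with median scaling, 70 with cyclic loess and 16 with no normalization (13 higher, 3 lower). No detection filter gave 293, a filter on all 6 arrays 61, and a filter at the highest NEGATIVE probe 21. Leaving out the arrays of 20 November gave 1121, scan date as a term 638 and the arrays of the first scan alone 677. Leave-one-out fits ranged from 78 to 789, with 789, 438 and 364 without DIO+sitagliptin 1, 2 and 3 (537, 178 and 77 of them higher). An arm left with 1 array is assumed to vary like the other groups. The cause of these changes was not tested. A fit on the mean signal of each spot was not run, and the median signal took its place.

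With the replicate number as a block, 276 probes of the 9-array fit and 65 of the 6-array fit had an unadjusted p under 0.05, and 0 were called. The deviations from the group mean of DIO and DIO+sitagliptin arrays with the same number had correlations of 0.17, -0.06 and -0.31 across probes. Each deviation was taken from a mean of few arrays, and the treated arrays lie in different scans. These correlations therefore cannot decide whether arrays with the same number were paired.

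Of the 32 named genes and the 12 probes with the smallest p of their families, 25 had the same sign in each alternative. For the other 19 genes the sign turned in at least 1. Without the arrays of 20 November, the opposite sign was found for Actb 0.14, Cep41 -0.041, Duox1 -0.21, Gm9789 -0.64, Il2 0.54, Lhx1 -0.38, Olfr1307 -0.060, Olfr166 -0.66, Olfr22-ps1 -0.27, Pex11a -0.0058, Prdx2 0.17, Rab5a -0.083 and Trp53rka 0.17. Scan date as a term turned Duox1 to -0.061, Gm9789 to -0.51, Il2 to 0.39, Lhx1 to -0.28, Ntng1 to -0.028, Olfr166 to -0.53, Olfr22-ps1 to -0.22, Rab5a to -0.14 and Trp53rka to 0.13. Array weights turned Cep41 to -0.12, Gabrg1 to -0.036, Gamt to 0.13, Gm9789 to -0.62, Il2 to 0.63, Lhx1 to -0.10, Ntng1 to -0.17, Olfr166 to -0.49, Pex11a to -0.27, Rab5a to -0.27 and Trp53rka to 0.080. The arrays of the first scan alone turned Cep41 to -0.13, Gamt to 0.094, Gm9789 to -0.66, Il2 to 0.60, Lhx1 to -0.061, Ntng1 to -0.14, Olfr166 to -0.45, Pex11a to -0.26, Rab5a to -0.19 and Trp53rka to 0.053. No normalization turned Cep41 to -5.0e-05. A pseudocount of 16 turned Cpt1a to 0.0073. The median over spots turned Cpt1a to 0.015. The median signal without background subtraction turned Cpt1a to 0.013. Median scaling turned Gamt to 0.025 and H2-M2 to 0.070. Cyclic loess turned Gamt to 0.0076 and H2-M2 to 0.052. Leaving out 1 array at a time, the difference ran for Actb from -0.94 to 0.98, Cep41 from -0.043 to 0.31, Cpt1a from -0.55 to 0.31, Duox1 from -0.22 to 1.19 and Gamt from -0.50 to 0.18. In the same fits it ran for Gm9789 from -0.65 to 0.58, H2-M2 from -0.51 to 0.11, H2-Q7 from -0.71 to 0.30, Il2 from -1.11 to 0.54 and Lhx1 from -0.38 to 0.88. For the others whose sign turned, it ran for Olfr1307 from -0.060 to 0.61, Olfr166 from -0.66 to 0.59, Olfr22-ps1 from -0.28 to 0.55, Pex11a from -0.0059 to 0.54, Prdx2 from -0.72 to 0.17, Rab5a from -0.089 to 0.36 and Trp53rka from -0.60 to 0.18. The family medians moved by more than 1 SD between replicates in 38 of 168 alternatives, counted over 6 families.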

Other observations

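The probes with the largest positive and negative difference of all 49360 were each bright on a single array. ASMM10LNC1A117619228V4, with a difference of 3.34 ± 2.49 (SE, n = 3 per group), read 11836 units on DIO+sitagliptin 1 and 2.34 to 20.6 units on the other 8 arrays of the study. ASMM10LNC1A104591832V4, with a difference of -3.63 ± 2.01, read 8208 units on DIO 2 and 5.71 to 26.1 units on the other 8. A search for this pattern, chosen after these values were seen, listed probes that were at least 64-fold brighter on 1 array than on any other while all others were under 100 units. It found 11 probes, all printed as a single spot, with 5 on DIO 2, 3 on DIO+sitagliptin 1 and 1 each on vehicle 1, DIO 1 and DIO 3. Of the 20 probes with the largest absolute differences, 6 were of this kind. A printed probe with 1 spot has no second spot on its array against which such a value can be checked.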
